A study of Rattus norvegicus with 6 samples.

Results

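Accessible chromatin was described at 10 genes of the rapid transcriptional response, namely the AP-1 subunit genes *Fos*, *Fosb*, *Fosl2*, *Jun*, *Junb* and *Jund*, the ATF family gene *Atf3*, and the immediate early genes *Egr1*, *Nr4a1* and *Npas4*. Every accessible site (ACS) that the deposited annotation ties to one of these symbols was taken, which gave 85 of 101603 distinct ACSs. ATAC-seq had been run on dissociated cells of whole, unsorted pancreatic islets of untreated Sprague-Dawley rats. The Adult group held 3 libraries (replicates 4 to 6), each from 1 male about 3 months old, and the P10 group held 3 libraries (replicates 1 to 3) of mixed pups from 3 litters, of both sexes and 10 days old. Age therefore cannot be told apart from sex, from single against pooled animals, or from the way the pancreas was digested, which was by duct injection in adults and by shaking pooled tissue in pups. Islets of both ages were cultured in glucose-containing medium and then dissociated with EGTA and trypsin before the assay. The comparison asks which sites of these genes change accessibility as islets mature after birth.

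The immediate early genes are switched on within minutes of a stimulus such as calcium entry, cyclic AMP, growth factors or mechanical stress, without new protein synthesis. Signals reach them through serum response factor with its ternary complex partners at CArG boxes, and through CREB with its CRTC coactivators at cyclic AMP response elements (CREs). *Fos* and *Jun* family proteins pair through leucine zippers to form AP-1, which binds TPA response elements (TREs), and *Egr1* and *Nr4a1* encode zinc finger and orphan nuclear receptor transcription factors. In beta cells glucose and depolarization induce several of these genes, and *Npas4* is a calcium-dependent bHLH-PAS factor.

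The genes differed in how many ACSs carried their name. *Jun* had 34, *Fosl2* 12, *Egr1* 10, *Fos* 8, *Fosb* 5, *Npas4* and *Atf3* 4 each, *Junb* and *Nr4a1* 3 each and *Jund* 2, against a median of 3 over 13834 symbols. *Jun* had more sites than 97.5% of all symbols. In the deposited classes 11 of the 85 were TSS sites, 19 proximal and 55 distal, and by position 6 overlapped a gene start, 4 lay inside the gene, 52 upstream and 23 downstream. A site is tied to the nearest gene, so a distal site may act on another gene, and distances below run from the edge of the site to the nearest end of the gene unless a midpoint is named.

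For orientation in the sequence, the 250 bases upstream of the gene start are given for 4 genes, from RefSeq on the GRCr8 assembly, whose coordinates and gene starts can differ from those of Rn5, the assembly of the ACSs. *Egr1* (chr18:26736828-26737077 on the plus strand) and *Jund* (chr16:18769772-18770021 on the minus strand) are shown because each held a start site called lower in adults and a match to a searched motif, and *Junb* (chr19:40080876-40081125 on the plus strand) and *Nr4a1* (chr7:134259888-134260137 on the plus strand) because the ACS over their start was not called. Capitals mark the matches.
Egr1: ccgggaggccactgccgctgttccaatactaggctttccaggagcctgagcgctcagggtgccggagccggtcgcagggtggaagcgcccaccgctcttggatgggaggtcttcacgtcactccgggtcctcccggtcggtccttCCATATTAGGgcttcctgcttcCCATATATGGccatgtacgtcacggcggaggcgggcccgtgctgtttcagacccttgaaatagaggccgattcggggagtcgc
Jund: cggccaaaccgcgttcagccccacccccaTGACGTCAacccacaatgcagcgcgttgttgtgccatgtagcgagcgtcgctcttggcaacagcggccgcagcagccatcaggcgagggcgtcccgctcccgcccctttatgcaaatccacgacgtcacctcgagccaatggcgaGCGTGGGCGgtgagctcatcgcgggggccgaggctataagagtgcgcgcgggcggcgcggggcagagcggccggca
Junb: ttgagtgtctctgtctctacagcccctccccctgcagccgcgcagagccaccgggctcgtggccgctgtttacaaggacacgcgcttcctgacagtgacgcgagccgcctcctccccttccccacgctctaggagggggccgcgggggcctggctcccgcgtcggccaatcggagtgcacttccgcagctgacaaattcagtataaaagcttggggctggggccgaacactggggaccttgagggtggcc
Nr4a1: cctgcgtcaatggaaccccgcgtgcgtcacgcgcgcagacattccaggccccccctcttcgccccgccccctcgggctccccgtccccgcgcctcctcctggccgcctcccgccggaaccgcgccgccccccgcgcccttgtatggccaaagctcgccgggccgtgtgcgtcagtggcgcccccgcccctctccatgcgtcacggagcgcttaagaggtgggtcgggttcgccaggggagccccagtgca
The capitals in *Egr1* are 2 CArG boxes, which end 96 and 74 bases before the start. In *Jund* they are 1 CRE, TGACGTCA, and 1 Egr site, GCGTGGGCG, which end 214 and 68 bases before it. Both strands were searched for the TRE (TGACTCA), the CRE, the CArG box and the Egr site, and no matches overlapped each other. Of 33469 promoters of the same length, 4.05% held a TRE, 1.59% a CRE, 1.497% a CArG box and 0.478% an Egr site. RefSeq windows were matched for 7 of the 10 genes, and those of *Fosb*, *Fosl2*, *Junb*, *Npas4* and *Nr4a1* held none of these letters. Of these, *Fosb* and *Npas4* also held start sites called lower in adults. The choice of the 4 genes shown therefore does not link a motif to a call.

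The libraries held 7916919 to 21168463 Tn5 integrations in ACSs, the P10 libraries more than the adults, and TMM factors ranged from 0.930 to 1.04. Values are given as CPM, the integrations of a site divided by the TMM-scaled library total and put on the usual CPM scale, and log2 fold changes are Adult over P10 from edgeR's quasi-likelihood test with Benjamini-Hochberg adjustment over all ACSs. An ACS was called Up (higher in adults) or Down (higher in P10) at an unadjusted p under 0.05 and an FDR under 0.2. Over all ACSs 12504 were called Up and 6738 Down, so 65.0% of calls were Up. With column sums in place of TMM the counts were 10447 and 10732, which is 49.3% Up. The study's authors, also with edgeR and these limits, reported more Down than Up ACSs, the reverse balance. The reason was not tested, and the shares over all ACSs given below are those of the present fit. In bulk tissue, fewer cells with an open site and less opening per cell cannot be told apart.

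One library stood apart at these genes. P10 replicate 1 was the highest of the 6 libraries at 43 of the 85 ACSs (50.6%), against 16.1% of all ACSs. Among the 30 ACSs with a midpoint within 10 kb of a gene start it was the highest at 25 (83.3%), against 28.9% of all TSS and proximal ACSs. Its median log2 ratio to the mean of the other P10 libraries was 0.43 over these 30 sites, 0.17 over the 55 sites farther away, 0.25 over 100 TSS and proximal sites of the related genes listed below, and 0.11 over all 21060 TSS and proximal sites. The corresponding ratio of Adult replicate 4 to the other adults was 0.23 over the 30 sites and 0.14 over all TSS and proximal sites. Results are therefore given with and without P10 replicate 1.

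Of the 85 ACSs, 9 were Up, 18 were Down and 58 were not called. Over all ACSs 12.3% were called Up and 6.63% Down. The 3 adult libraries all exceeded the 3 P10 libraries at 8 of the 85 ACSs and all fell short of them at 18, against 13.8% and 10.9% of all ACSs. The median log2 fold change was -0.20 over the members and -0.01 over all ACSs. Without P10 replicate 1 the members had 10 Up and 10 Down calls, and the median was -0.12 against -0.01 over all ACSs. In that fit 12974 of all 101603 ACSs were Up and 6892 Down.

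By class, of the 11 TSS sites 0 were Up and 6 Down, where 2.73% and 7.87% of all TSS sites were called. Without P10 replicate 1 only 2 of the TSS sites were Down and 0 Up. At an unadjusted p under 0.05 alone, edgeR, DESeq2 and limma voom each gave 0 of the 11 TSS sites higher in adults, and 7, 7 and 5 lower. The share of all TSS sites at this limit was not computed, so nothing is drawn from the 0. Of the 19 proximal sites 1 was Up and 8 Down, where 11.2% and 6.71% of all proximal sites were called, and without that library 1 was Up and 6 Down. Of the 55 distal sites 8 were Up and 4 Down, where 13.8% and 6.45% of all distal sites were called, so the distal sites of these genes lay near the background in both directions. The sites within 10 kb of the start were the TSS and proximal sites together, to be read against the shares of those classes. Of these 30 sites 1 was Up and 14 were Down, and without P10 replicate 1 these were 1 and 8. Beyond 10 kb 8 of 55 were Up and 4 Down, and without that library 9 and 2. Shares of all sites by class or distance were not computed without that library, and the class shares given here are from all 6 libraries.

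**Figure D1:**
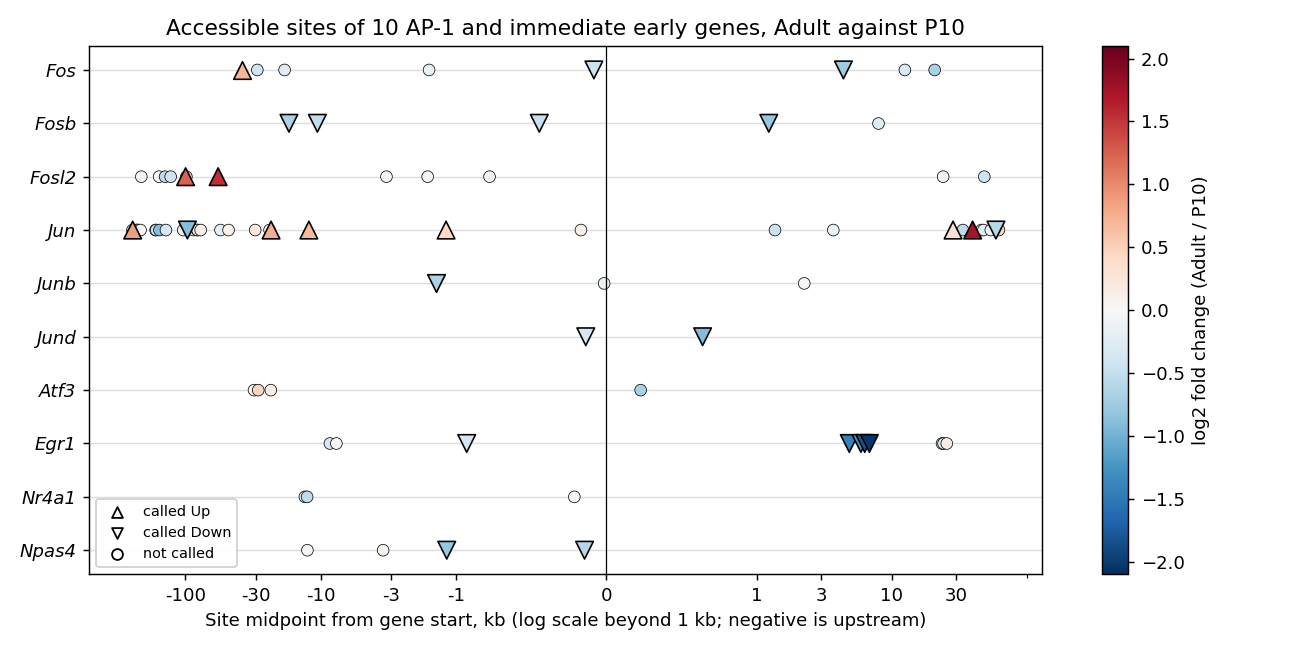
Each mark is 1 of the 85 ACSs, placed by the distance of its midpoint from the start of its gene in kb (log scale beyond 1 kb, negative upstream), with one row for each gene. Colour gives the log2 fold change (Adult over P10), triangles pointing up and down mark the 9 Up and 18 Down sites, and circles the 58 not called. Down marks gather near the starts and past the end of *Egr1*, and Up marks lie mostly beyond 10 kb at *Jun*, *Fosl2* and *Fos*.

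*Egr1*, which encodes a zinc finger factor induced by glucose and growth signals, held the largest decreases. Its 4 ACSs 1748 to 4510 bp past the gene end, together chr18:27373464-27376447 on Rn5, were all lower in adults and all called in each of the 6 fits that left out 1 library. Summed over the 4 sites, the level was 30.3, 37.6 and 30.8 CPM in the adults and 130, 72.0 and 73.7 CPM in P10 replicates 1 to 3, and the groups did not overlap. P10 replicate 1 was the highest, and both other P10 libraries still lay above every adult.

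The widest of the 4, with 1794 bp and 1748 bp past the gene, held 22.1, 30.0 and 24.0 CPM in the adults and 95.2, 51.7 and 55.3 CPM in P10. Its log2 fold change was -1.41 (SE 0.20, adjusted p 2.98e-05, edgeR), a 2.66-fold higher level in P10, and -1.09 (adjusted p 0.000381) without P10 replicate 1. The site 3842 bp past the gene held 4.07, 4.09 and 3.61 CPM in adults and 20.4, 11.0 and 9.46 CPM in P10 (log2 fold change -1.79, SE 0.29, adjusted p 0.000118, edgeR). The groups of this site also lay apart, by a factor of over 2 between the highest adult and the lowest P10 library. The 2 narrow sites at 3585 and 4510 bp fell by 1.22 (SE 0.31, adjusted p 0.0122, edgeR) and 2.04 (SE 0.38, adjusted p 0.000640, edgeR) on the log2 scale. The latter rested on few integrations in the adults, with 22, 8 and 7 counts against 146, 59 and 85 in P10. Without P10 replicate 1 the 4 values ranged from -0.99 to -1.81 and all remained called.

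The ACS just upstream of the *Egr1* start, 1596 bp wide and ending 130 bp before it, was classed as proximal because its left edge lies more than 1000 bp away. It held 106, 93.4 and 92.3 CPM in adults and 158, 121 and 103 CPM in P10, so Adult replicate 4 lay above P10 replicate 3. Its log2 fold change was -0.39 (SE 0.16, adjusted p 0.135, edgeR), called Down, but -0.21 (adjusted p 0.492) without P10 replicate 1. The call was also lost without Adult replicate 6 (-0.35) or P10 replicate 2 (-0.44). For each 100 integrations in this start site, the 4 sites past the gene held 28.5, 40.3 and 33.4 in the adults and 82.1, 59.5 and 71.6 in P10. The ratio was 2.09-fold higher in P10 with no overlap, given as a description since the sites were chosen for their decrease. At 4 other genes the ratio was taken for the nearest site past the gene, picked by position and not for a change. It averaged 25.8 in adults and 30.0 in P10 at *Fos*, and 73.7 and 60.4 at *Fosb*. At *Junb* it averaged 164 and 142, and at *Jun* 19.8 and 23.5. The ages overlapped at these 4 genes, but the sites were selected otherwise than at *Egr1*, so the ratios cannot be set against each other. The other 5 *Egr1* sites, 2 of them 7411 and 8401 bp upstream and 3 beyond 21 kb downstream, had log2 fold changes from -0.39 to 0.14 and none was called.

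**Figure D2:**
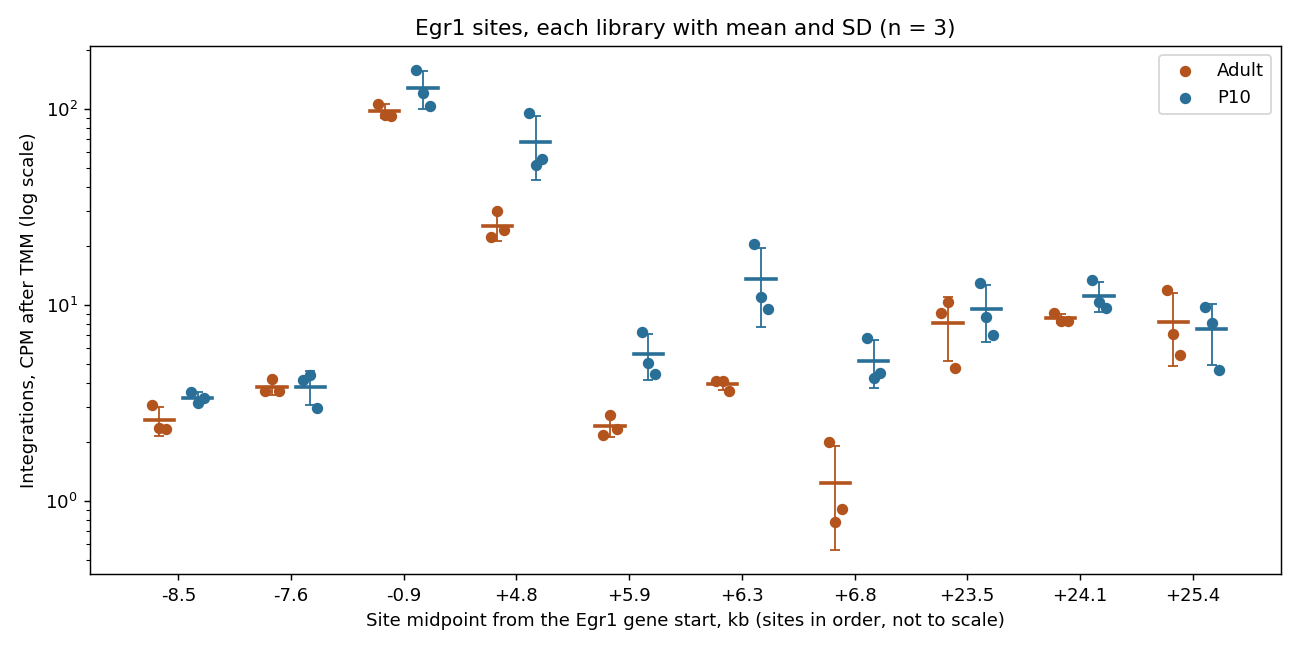
Points give the CPM (log scale) of each library at the 10 *Egr1* ACSs, in order of the midpoint's distance from the gene start in kb, with the mean as a bar and the SD as a whisker (n = 3). At the 4 sites from +4.8 to +6.8 kb every P10 library lies above every adult, while the flanking sites overlap or nearly touch.

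*Fosb*, an AP-1 subunit gene, had negative values at all 5 ACSs, 4 of them called. The site inside the gene, 873 bp from its start, held 13.4, 11.1 and 11.3 CPM in adults and 23.8, 20.8 and 18.5 CPM in P10. The groups did not overlap, the log2 fold change was -0.81 (SE 0.20, adjusted p 0.0100, edgeR), and the call held in all 6 fits without 1 library (-0.73 without P10 replicate 1). The site 94 bp upstream of the start held 17.3, 14.6 and 18.4 CPM in adults and 26.6, 24.9 and 18.3 CPM in P10 (log2 fold change -0.48, SE 0.20, adjusted p 0.153, edgeR). P10 replicate 3 lay below Adult replicate 6 there. The upstream sites at 10250 and 16896 bp had -0.51 and -0.67, without overlap. These 3 calls were lost without P10 replicate 1, with values of -0.38, -0.41 and -0.41 in the same order. The first was also lost without Adult replicate 4, Adult replicate 5 or P10 replicate 2, and the second without P10 replicate 3. The remaining site, 650 bp past the gene, held 25.8 CPM in P10 replicate 1 and 8.20 to 14.6 CPM in the other 5 libraries, and its value moved from -0.24 to 0.47 without that library, not called in either fit.

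*Jund*, whose product is the AP-1 subunit that is made at a steady level rather than as a burst, had 2 ACSs. The site over its start held 46.3, 44.2 and 37.1 CPM in adults and 60.7, 58.7 and 45.5 CPM in P10, with P10 replicate 3 below Adult replicate 4. Its log2 fold change was -0.37 (SE 0.16, adjusted p 0.187, edgeR), called Down with all libraries, and -0.30 (adjusted p 0.344) without P10 replicate 1, and the call was also lost without Adult replicate 6 or P10 replicate 2. The site inside the gene, 381 bp from the start, held 6.51, 8.47 and 6.19 CPM in adults and 16.6, 12.98 and 10.5 CPM in P10, without overlap. It fell by 0.92 on the log2 scale (SE 0.24, adjusted p 0.0147, edgeR), and was called in all 6 fits without 1 library, at -0.74 without P10 replicate 1.

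*Junb* encodes a subunit that can restrain AP-1 as well as form it. At the ACS over its start adults held 29.8, 28.3 and 23.2 CPM and P10 35.1, 29.1 and 25.2 CPM, which overlapped (log2 fold change -0.13, SE 0.18, adjusted p 0.751, edgeR). The site 1108 bp upstream held 16.5, 16.1 and 16.4 CPM in adults and 29.4, 25.2 and 23.1 CPM in P10, without overlap. Its log2 fold change was -0.67 (SE 0.19, adjusted p 0.0231, edgeR), and -0.57 (adjusted p 0.0650) without P10 replicate 1. The site 50 bp past the gene had 0.05 and was not called.

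*Fos*, the founding partner of Jun in AP-1, had 2 sites called Down and 1 Up. The ACS over its start held 34.8, 30.1 and 29.0 CPM in adults and 53.6, 38.2 and 38.3 CPM in P10, without overlap. The log2 fold change was -0.47 (SE 0.18, adjusted p 0.0981, edgeR), and -0.30 (adjusted p 0.340) without P10 replicate 1, and the call was also lost without Adult replicate 6 (-0.42, adjusted p 0.253). The site 1149 bp past the gene held 10.4, 7.21 and 6.83 CPM in adults and 24.4, 8.27 and 8.67 CPM in P10. Its value of -0.76 (SE 0.31, adjusted p 0.141, edgeR) rested on P10 replicate 1, since it was -0.06 (adjusted p 0.931) without it, and the call was also lost without Adult replicate 5 or 6 (-0.67 and -0.66). In the opposite direction, the site 37836 bp upstream held 30.5, 22.4 and 18.1 CPM in adults and 18.0, 14.2 and 11.1 CPM in P10. Adults lay above P10 by a narrow margin, with a log2 fold change of 0.72 (SE 0.22, adjusted p 0.0382, edgeR) and 0.90 without P10 replicate 1. This call was lost without Adult replicate 4 (0.49, adjusted p 0.253) or P10 replicate 3 (0.54, adjusted p 0.235). The other 5 *Fos* sites ranged from -0.68 to -0.14.

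*Npas4* had 2 TSS sites called Down at low levels. The ACS over its start held 6.597, 5.84 and 3.996 CPM in adults and 9.25, 6.70 and 9.04 CPM in P10 (log2 fold change -0.60, SE 0.26, adjusted p 0.182, edgeR). The site 999 bp upstream held 3.43, 2.63 and 2.84 CPM in adults and 7.58, 2.92 and 4.86 CPM in P10 (log2 fold change -0.80, SE 0.33, adjusted p 0.151, edgeR), and its groups overlapped. Both calls were lost without P10 replicate 1 (-0.53 and -0.41), without Adult replicate 5 or 6, and without P10 replicate 3. The sites at 3318 and 12171 bp upstream had values of 0.08 and -0.05.

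*Nr4a1*, *Atf3* and the start of *Jun* gave no calls. The ACS over the *Nr4a1* start held 39.4, 32.2 and 34.3 CPM in adults and 42.6, 35.0 and 31.7 CPM in P10 (log2 fold change -0.04, SE 0.17, adjusted p 0.929, edgeR), and its 2 sites beyond 12 kb upstream had -0.29 and -0.54. *Atf3*, a stress-induced partner of Jun, had 3 upstream sites from 0.04 to 0.47 and 1 TSS site just inside the gene. That site held 3.07, 2.24 and 2.32 CPM in adults and 3.58, 5.14 and 3.70 CPM in P10, with no overlap and an uncalled log2 fold change of -0.68 (SE 0.32, adjusted p 0.217, edgeR). It passed the limits without P10 replicate 1 (-0.79, adjusted p 0.181).

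**Figure D3:**
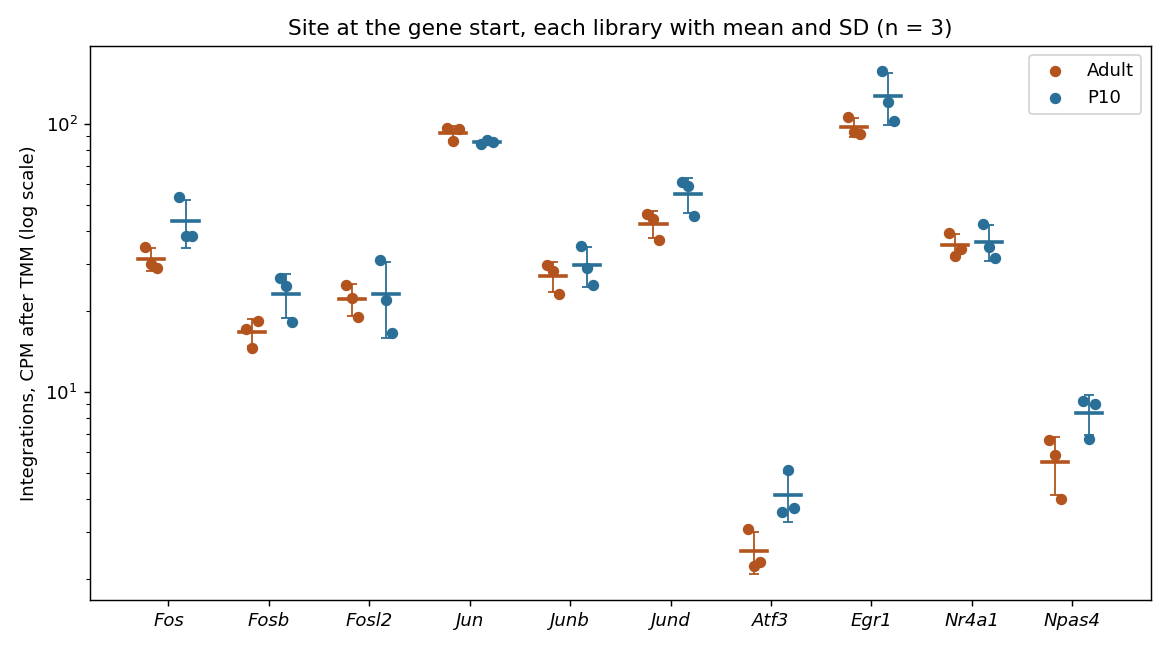
Points give the CPM (log scale) of each library at the ACS over or nearest the start of each gene, with the mean as a bar and the SD as a whisker (n = 3). CPM values are not divided by the width of the site, so they compare ages within a gene and not genes with each other. P10 lies above the adults without overlap at *Fos*, *Npas4* and *Atf3*, and the ages overlap at the other 7 genes.

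*Jun* encodes the main partner of the Fos proteins, and its 34 ACSs run from 245074 bp upstream to 58581 bp downstream of the gene. The ACS over its start held 97.1, 86.5 and 95.7 CPM in adults and 84.6, 87.5 and 85.9 CPM in P10 (log2 fold change 0.11, SE 0.14, adjusted p 0.724, edgeR). Here P10 replicate 1 was the lowest of the 6 libraries. Away from the start 6 sites were Up and 2 Down.

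The largest increase was at chr5:117921172-117921456, 36274 bp past the gene. Its counts were 57, 35 and 32 in adults and 24, 20 and 24 in the more deeply sequenced P10 libraries, which is 5.15, 3.41 and 4.13 CPM against 1.12, 1.43 and 1.27 CPM. The groups lay well apart, with a log2 fold change of 1.74 (SE 0.35, adjusted p 0.00142, edgeR). For each 100 integrations in the *Jun* start site it held 5.30, 3.94 and 4.31 in adults and 1.32, 1.63 and 1.48 in P10, a description of a site chosen for its increase.

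Upstream, the site at 22936 bp held 16.0, 14.5 and 16.4 CPM in adults and 9.62, 9.27 and 8.62 CPM in P10, a tight separation (log2 fold change 0.77, SE 0.21, adjusted p 0.0204, edgeR). The site at 11896 bp held 31.6, 23.6 and 28.4 CPM in adults and 20.4, 13.6 and 18.2 CPM in P10 (log2 fold change 0.68, SE 0.20, adjusted p 0.0274, edgeR), again without overlap, and its call was lost without P10 replicate 2 (0.51, adjusted p 0.230). The site at 244190 bp held 18.0, 14.5 and 21.4 CPM in adults and 10.9, 9.56 and 8.93 CPM in P10 (log2 fold change 0.87, SE 0.22, adjusted p 0.00960, edgeR). The sites at 36274, 22936 and 244190 bp were called in all 6 fits without 1 library. The other Up sites, 1036 bp upstream (0.42, adjusted p 0.194) and 24891 bp downstream (0.34, adjusted p 0.192), lay near the limit. Each was called in 2 of the 6 fits, being lost without Adult replicate 4, Adult replicate 6, P10 replicate 2 or P10 replicate 3. The Down sites, 96079 bp upstream (-0.89, adjusted p 0.109) and 55324 bp downstream (-0.58, adjusted p 0.142), were called in 4 and 2 of those fits. The first was lost without Adult replicate 4 or P10 replicate 2, and the second without Adult replicate 4, Adult replicate 5, P10 replicate 1 or P10 replicate 2. Sites called in opposite directions thus lay within the same locus, and the other 26 sites were not called. The 6 Up and 2 Down calls among 34 sites stand beside 12.3% and 6.63% of all ACSs. Nothing particular to *Jun* is drawn from these counts.

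*Fosl2*, an AP-1 subunit gene of slower induction, had no called site within 10 kb of its start, where the values were -0.06, 0.04 and 0.05. The nearest, 610 bp upstream, held 25.2, 22.4 and 19.1 CPM in adults and 31.0, 22.0 and 16.7 CPM in P10. Its 2 called sites lay far upstream and were Up. At 56972 bp (chr6:35497230-35497561) adults held 5.96, 6.72 and 7.86 CPM and P10 2.98, 1.78 and 2.22 CPM, with a log2 fold change of 1.53 (SE 0.30, adjusted p 0.00108, edgeR). At 99245 bp (chr6:35539503-35539737) adults held 12.0, 6.04 and 8.25 CPM and P10 4.65, 3.57 and 2.96 CPM (log2 fold change 1.23, SE 0.29, adjusted p 0.00597, edgeR). Neither overlapped between ages, and both were called in all 6 fits without 1 library. Another site, at 97810 bp, had 0.49 (adjusted p 0.235) with all libraries and 0.89 (adjusted p 0.0102) without P10 replicate 1. For each 100 integrations at the start site, the 56972 bp site held 23.7, 30.0 and 41.2 in adults and 9.60, 8.09 and 13.3 in P10, which is likewise a description.

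**Figure D4:**
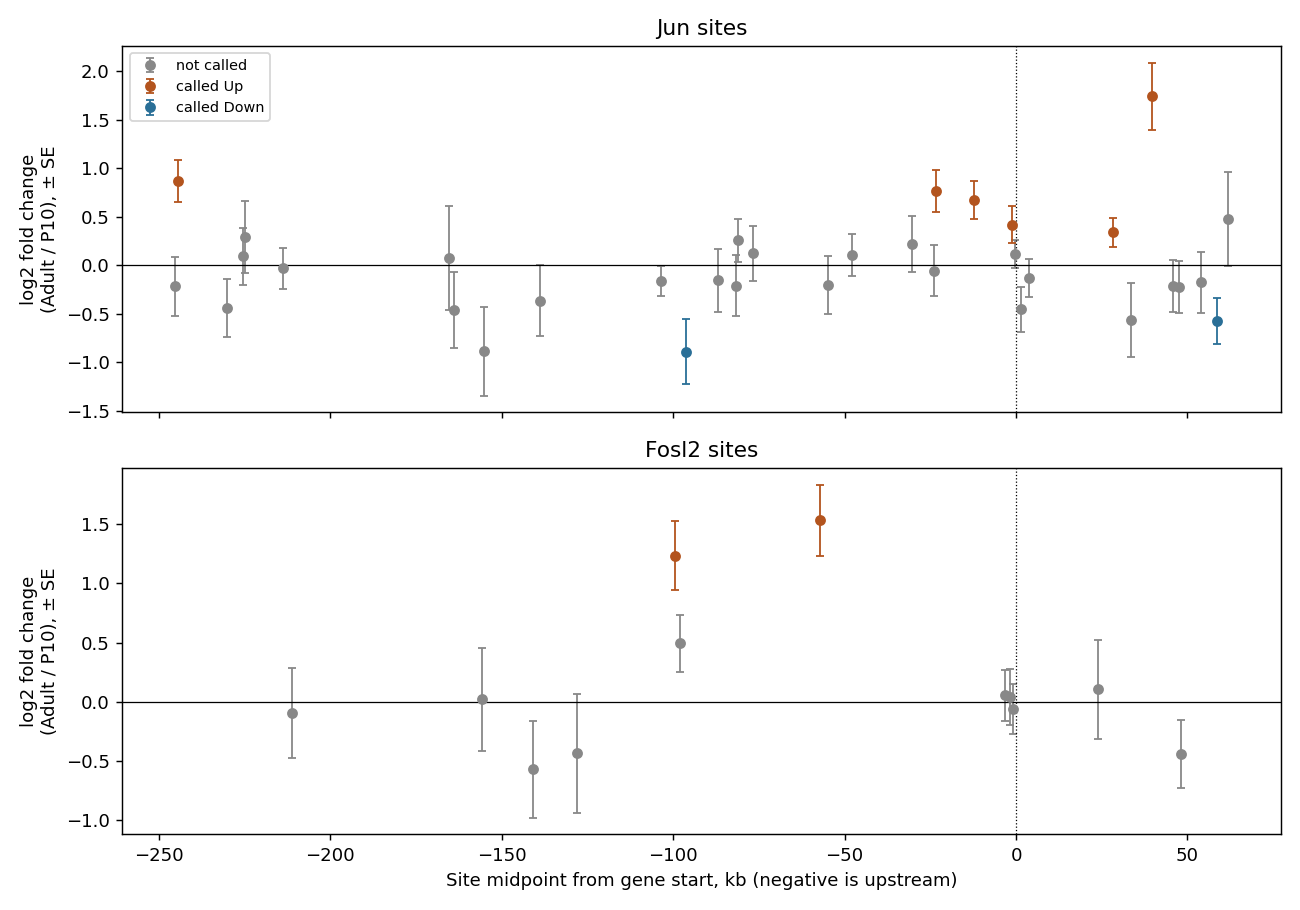
Log2 fold change (Adult over P10) with its SE for the 34 *Jun* and 12 *Fosl2* ACSs, against the distance of the midpoint from the gene start in kb. Grey sites were not called, the *Jun* start is at 0.11, and the highest values are 1.74 past *Jun* and 1.53 and 1.23 upstream of *Fosl2*.

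Counts were also summed over all ACSs of a gene and fitted over 13834 gene totals, of which 10.5% were called Up and 7.67% Down. Of the 10 genes 0 were Up and 3 Down, and DESeq2 and limma voom gave the same counts. At an unadjusted p under 0.05 alone, edgeR, DESeq2 and limma voom each gave 0 of the 10 totals higher in adults and 3 lower. The share of all gene totals at this limit was not computed. *Egr1* totalled 174, 178 and 165 CPM in adults and 341, 245 and 228 CPM in P10 (log2 fold change -0.65, SE 0.14, adjusted p 0.0101, edgeR). *Fosb* totalled 69.2, 65.1 and 72.1 CPM against 123, 89.6 and 87.3 CPM (-0.54, SE 0.13, adjusted p 0.0231, edgeR). *Jund* totalled 53.0, 57.6 and 48.4 CPM against 79.5, 77.3 and 62.4 CPM (-0.46, SE 0.13, adjusted p 0.0378, edgeR). None of these totals overlapped between ages. They were -0.47, -0.38 and -0.41 without P10 replicate 1 and still called, and that of *Jund* was lost without P10 replicate 2 (-0.42, adjusted p 0.203).

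The totals of *Fos* (-0.25), *Npas4* (-0.23), *Junb* (-0.17), *Nr4a1* (-0.14), *Atf3* (0.09), *Jun* (0.10) and *Fosl2* (0.19) were not called. *Fosl2* passed the limits without P10 replicate 1 (0.36, adjusted p 0.0430), *Fos* without P10 replicate 3 (-0.33, adjusted p 0.1997), and *Npas4* changed sign without P10 replicate 1 (0.04). The 85 ACSs together took 0.123%, 0.117% and 0.117% of all integrations in ACSs in adults and 0.167%, 0.133% and 0.126% in P10, a difference of -0.023 percentage points (two-sided exact permutation test, p = 0.1, below which 3 against 3 libraries cannot go). Without P10 replicate 1 the difference was -0.011 percentage points.

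**Figure D5:**
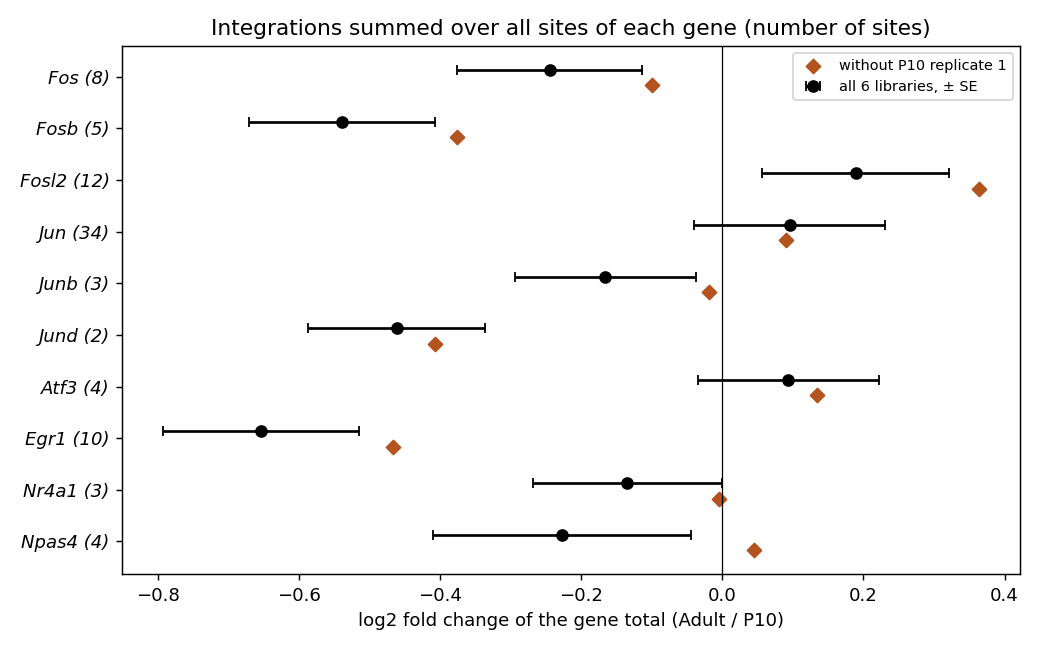
Log2 fold change (Adult over P10) of the integrations summed over all ACSs of each gene, with the number of ACSs in brackets. Circles with SE bars use all 6 libraries and diamonds leave out P10 replicate 1. *Egr1*, *Fosb* and *Jund* lie below 0 in both, and the diamonds of *Junb*, *Nr4a1* and *Npas4* lie close to 0.

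Genes that work with these factors were described from 3 lists. Of 12 AP-1 partners of the ATF, CREB, BATF and JDP families and *Fosl1*, 11 had ACSs, and 5 of their 52 ACSs were Up and 4 Down, where 12.3% and 6.63% of all ACSs were called. None of the 11 gene totals was called, where 10.5% of all gene totals were Up and 7.67% Down. Their values ran from -0.27 at *Fosl1* to 0.37 at *Batf*. *Crem*, which encodes a cyclic AMP response factor, was called Down without P10 replicate 1 (-0.30). Of 16 genes upstream of the immediate early response, 12 had ACSs, with 8 of 60 ACSs Up and 1 Down, to be read against the same shares of all ACSs. Of their 12 totals 2 were Up and 3 Down, to be read against the shares of all gene totals. *Elk3*, a ternary complex factor, was Up (0.56, SE 0.12, adjusted p 0.0121, edgeR), as was *Mapk10*, a JNK gene (0.26, adjusted p 0.167, edgeR). *Srf*, which encodes serum response factor, was Down (-0.32, adjusted p 0.162, edgeR), as were the CREB coactivator gene *Crtc1* (-0.49, adjusted p 0.0636, edgeR) and the JNK gene *Mapk9* (-0.32, adjusted p 0.134, edgeR). Without P10 replicate 1 the calls of *Srf* and *Mapk10* were lost (-0.20 and 0.22) and *Map2k7*, which encodes a kinase that activates JNK, was called Down (-0.39). Of the 6 fits without 1 library, *Elk3* was called in 6, *Crtc1* in 5, *Mapk9* in 3, *Srf* in 2 and *Mapk10* in 1.

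All 24 other immediate early genes had ACSs, with 50 of 320 Up and 30 Down, again beside 12.3% and 6.63% of all ACSs. Of their 24 totals 2 were Up and 2 Down, beside 10.5% and 7.67% of all gene totals. *Klf4* (0.37, adjusted p 0.0973, edgeR) and *Klf6* (0.30, adjusted p 0.195, edgeR), both Krüppel-like factor genes, were Up. *Cyr61*, which encodes a matrix-associated signalling protein, was Down (-0.69, SE 0.13, adjusted p 0.00454, edgeR), as was *Klf2* (-0.28, adjusted p 0.181, edgeR). The calls of *Klf6* and *Klf2* were lost without P10 replicate 1 (0.19 and -0.21), where *Gadd45g* was called Up (0.45) and *Nab1* Down (-0.26). Of the 6 fits without 1 library, *Cyr61* was called in 6, *Klf4* in 3 and *Klf6* and *Klf2* in 2 each. The close relatives of *Egr1* and *Nr4a1* gave no called total, with 0.19 for *Egr2*, -0.06 for *Egr3*, 0.07 for *Egr4*, 0.01 for *Nr4a2* and 0.25 for *Nr4a3*. The median gene total of the list was -0.02, against -0.01 over all gene totals and -0.20 over the 10 genes. Without P10 replicate 1 these medians were 0.02, -0.02 and -0.01, so the lower median of the 10 genes was not seen without that library.

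Markers of the cell types that islet tissue can hold were read beside these results, as CPM summed over their TSS sites. Beta cell markers (4 of 5 genes with such a site) held 124 to 169 CPM in adults and 156 to 276 CPM in P10, with P10 replicate 1 the highest. Alpha cell markers (3 of 4) held 54.4 to 71.8 and 57.2 to 70.4 CPM, and proliferation markers (3 of 4) 130 to 137 and 118 to 145 CPM. The summed TSS sites of delta cell (2 of 2), duct (3 of 4) and acinar (1 of 5) markers were lower in adults without overlap, at 11.6 to 13.7 against 17.6 to 25.6 CPM, 17.5 to 20.2 against 24.7 to 34.5 CPM, and 3.52 to 4.48 against 4.599 to 5.14 CPM. Endothelial (1 of 5) and mesenchymal (3 of 5) markers overlapped between ages, at 9.04 to 16.2 against 12.0 to 16.6 CPM and 12.3 to 16.5 against 16.5 to 21.1 CPM. Leukocyte and Schwann cell markers had no TSS site. Summed over all ACSs of a gene, several of these lists held values of both signs. The duct gene *Cftr* was Up (0.61, adjusted p 0.0322, edgeR) with 0.25 at *Krt19*, 0.08 at *Sox9* and -0.18 at *Spp1*. The endothelial genes *Cdh5* (0.52, adjusted p 0.0183, edgeR) and *Kdr* (0.33, adjusted p 0.139, edgeR) were Up and *Plvap* was Down (-0.50, adjusted p 0.183, edgeR). The delta cell gene *Hhex* was Down (-0.54, adjusted p 0.0322, edgeR) with 0.17 at *Sst*, and the acinar gene *Prss1* was Down (-0.85, adjusted p 0.0831, edgeR) with 0.23 at *Ptf1a*. The insulin genes *Ins1* (-0.59, adjusted p 0.0133, edgeR) and *Ins2* (-0.38, adjusted p 0.141, edgeR) were Down, and the alpha cell gene *Ttr* was Up (0.35, adjusted p 0.101, edgeR). The calls of *Ins2* and *Plvap* were lost without P10 replicate 1, and *Iapp* (0.61), *Slc2a2* (0.33) and *Krt19* (0.50) were then Up and *Ptprc* (-0.53) and *Top2a* (-0.42) Down. The part of these differences, of islet handling and of P10 replicate 1 in the values above was not tested.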

How the data were processed

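ATAC-seq was measured in islet cells of 3 Adult and 3 P10 libraries. Per the study's methods, the authors aligned reads to Rn5 with BWA 0.7.13, removed mitochondrial and low-quality alignments, called peaks with MACS2 2.1.1 on the concatenated libraries of each age, merged both sets and deposited raw counts, which are the Tn5 integrations of each library within each ACS as given by pyDNase. Whether PCR duplicates were removed is not given in the sources used here. Columns of the authors' own test (fold change, F, p-value and FDR) were not used. Of 101941 listed entries, 101603 were distinct ACSs, and each was tested once. The groups were taken from the sample titles.

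Counts were fitted with edgeR 4.0.16 in R 4.3.3 (TMM, glmQLFit, glmQLFTest, age as the only term, no filter), once over all ACSs and once over sums per gene symbol. The SE is the log2 fold change divided by the square root of F. The fit was tested on simulated counts. Integrations without molecular identifiers are not independent molecules. The edgeR p-values set the difference between ages against the variation between the 3 libraries of each age, moderated over all ACSs or all gene totals. Depth ranged from 7916919 to 21168463 integrations. Replicate pairs differed by a chi-square per degree of freedom of 3.35 to 7.81, so none was a repeat of another. The alternatives were DESeq2 1.42.0, column sums, limma voom 3.58.1, edgeR's expression filter (minimum count 10, total 15), an FDR under 0.05, every listed entry kept, and leaving out each library. Shares of integrations were compared by an exact permutation test.

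The genes, the lists and the rule for sites named (every TSS site, every called site, and the highest, nearest, farthest and smallest-p site of each gene, and called totals of the listed genes) were chosen with earlier results of these data known. Some further sites were named for their values. One marker gene is not reported here. Promoters were taken from RefSeq (GRCr8).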

Additional observations from a re-analysis of the deposited data

How the results depend on the processing

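No paired analysis was possible because the groups share no replicate number. Leaving out each library in turn gave 6 to 10 Up and 10 to 16 Down sites at the 10 genes, 0 to 1 Up and 2 to 4 Down gene totals, a difference in share from -0.031 to -0.011 percentage points (the latter without P10 replicate 1), and 7973 to 13232 Up and 3285 to 7215 Down ACSs overall. With an FDR under 0.05, 7 sites at the 10 genes were Up and 7 Down, and overall 7177 ACSs were Up and 1945 Down. With column sums 10732 ACSs overall were Down. DESeq2, limma voom, the filter and every listed entry kept these counts within 1.5 times. Over 43 named sites and 11 settings, 52 calls were lost, 3 were gained and 23 values, none of them called, changed sign.

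Sites that changed sign are given by the distance of the midpoint from the start in bp. With column sums they were *Atf3* -31013 (-0.051), *Fosl2* -3257 (-0.040) and *Junb* 2250 (-0.041). Without 1 library the values ranged from -0.098 to 0.18 at *Atf3* -31013, from -0.019 to 0.29 at *Atf3* -23306, from -0.23 to 0.37 at *Egr1* 25450, from -0.32 to 0.25 at *Fosl2* -211050, from -0.11 to 0.40 at *Fosl2* -3257, from -0.27 to 0.20 at *Fosl2* -776, from -0.11 to 0.34 at *Junb* 2250, from -0.23 to 0.31 at *Npas4* -12507, from -0.15 to 0.074 at *Nr4a1* -212, and from -0.40 to 0.044 for the gene total of *Npas4*. The cause was not tested. The *Jund* start site, the *Jun* sites 1036 bp upstream and 24891 bp downstream, the *Fos* site past the gene and the *Npas4* site 999 bp upstream each lost their call in at least 1 of DESeq2, limma voom and column sums. Sites with few integrations have wide errors, so small differences there were not detectable at this depth.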
